A study of Mus musculus with 12 samples.

Results

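The 10 genes described here encode enzymes and partners of 2 linked methylation pathways in activated mouse CD4 T cells. They are *Mat2a*, *Mat2b*, *Ahcy*, *Ahcyl1* and *Mtr* of the S-adenosylmethionine (SAM) cycle, and *Mettl3*, *Mettl14*, *Wtap*, *Mettl16* and *Ythdf2* of the writing and reading of N6-methyladenosine (m6A) in RNA. They were chosen by symbol, by a rule that used none of their values but was set with earlier results of these data known, from the 49585 genes of the count files, and all 10 were found in each of the 12 libraries. The study sequenced total cytoplasmic RNA and ribosome protected fragments (RPFs) from control and *Rnmt* cKO CD4 T cells, with 3 libraries in each of the 4 groups. Control cells were *Rnmt* fl/fl CD4cre - and *Rnmt* cKO cells were *Rnmt* fl/fl CD4cre +, so that both carried the floxed *Rnmt* alleles and the controls lacked Cre. All libraries came from female mice, on a C57B6/J background by the study's methods, whose ages were not given in the sources used here. Naive CD4 T cells of the lymph nodes were isolated by magnet and cultured for 20 h on plates coated with anti-CD3 (5 ug/ml) and anti-CD28 (1 ug/ml) antibodies, and 0.1 mg/ml cycloheximide was added for 1 min before lysis to hold ribosomes in place. The Cre transgene is driven by *Cd4* sequences, which are active from the double-positive stage of the thymus on, before the cells were isolated and activated. The cultures of a group are numbered in the labels, without a statement that each came from its own animal, and p-values therefore measure the spread between these cultures.

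SAM is the methyl donor of almost all cellular methyltransferases, including RNMT, which methylates the guanosine cap of mRNA. It is made from methionine and ATP by the MAT2A enzyme with its regulatory subunit MAT2B, and leaves each methylation as S-adenosylhomocysteine (SAH), an inhibitor of methyltransferases that AHCY hydrolyses to homocysteine and adenosine. MTR returns homocysteine to methionine with a methyl group from folate and cobalamin as cofactor. In the nucleus METTL3, the catalytic subunit, together with METTL14 and the adaptor WTAP methylates adenosines of mRNA, METTL16 methylates U6 snRNA and the *Mat2a* mRNA itself, and YTHDF2 binds m6A in the cytoplasm and brings the CCR4-NOT deadenylase to the mRNA. Activated T cells raise methionine uptake, and both SAM synthesis and m6A are known to be needed for their growth and differentiation.

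The *Mat2a* mRNA links the 2 pathways through sequence. METTL16 binds hairpins in its 3′ UTR that contain the nonamer TACAGAGAA or the related TACAGAAAA, and these sites are printed because no other gene of the 10 held either nonamer in its 3′ UTR. The 1494 bases of 3′ UTR of transcript Mat2a-201 (GENCODE vM21, GRCm38, minus strand of chromosome 6) held 6 nonamers, 5 of the first form and 1 of the second, when the transcript strand alone was searched. Among 7038 genes with a 3′ UTR at least as long, searched over the same number of bases from the stop codon, 4.08% held at least 1 nonamer and *Mat2a* was the 1 gene with 6. Each site is given 5′ to 3′ on the transcript strand with 9 bases on each side and the nonamer in capitals, in the order from the stop codon.
Site 1, chr6:72434236-72434262: ggcgtaggtTACAGAGAAgccttcaag
Site 2, chr6:72433452-72433478: cttgtgataTACAGAGAAgtcacaggg
Site 3, chr6:72433273-72433299: tggtgtagcTACAGAGAAaccagcttc
Site 4, chr6:72433158-72433184: tggcgtaagTACAGAGAAgccatcacc
Site 5, chr6:72433047-72433073: aaggtgtccTACAGAAAAaccttgggt
Site 6, chr6:72432939-72432965: ctggtgtggTACAGAGAAgccagcttg
A match is a run of letters, and neither methylation nor METTL16 binding was measured in these libraries.

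Between 15079703 and 22629563 reads were counted on genes in the total RNA libraries and between 4123271 and 10661356 in the RPF libraries, of which *Rnmt* cKO replicate 3 was the shallowest. Values are given as CPM, counts per 1000000 of the library size after TMM scaling, and a fold change compares shares of the sequenced RNA, so that a change in mRNA per cell is not part of it. The study measured less mRNA per cell in activated *Rnmt* cKO cells than in controls. It warned that falls of single genes are then understated and rises overstated by RNA sequencing. In bulk samples fewer cells of a type and less RNA per cell cannot be told apart. *Rnmt*, the deleted gene, was first compared as a check of the genotypes. Its total RNA was 95.5, 94.1 and 94.3 CPM in controls 1 to 3 and 29.3, 32.4 and 30.4 CPM in *Rnmt* cKO 1 to 3. Its RPFs were 104, 87.9 and 98.9 CPM in controls and 10.5, 10.4 and 9.60 CPM in *Rnmt* cKO cells. All *Rnmt* cKO libraries thus lay below all controls, as their labels say, and the log2 fold change was -1.62 in total RNA and -3.24 in RPF (adjusted p = 5.8e-06 and 4.8e-06, edgeR quasi-likelihood test, adjusted after Benjamini and Hochberg). The defining CD4 T cell markers were all measured, and their sum of 8 genes was between 2498 and 3372 CPM in the total RNA libraries. Of these 8, 4 were lower in *Rnmt* cKO total RNA, beside 28.0% of all genes tested. Among the 4, *Cd3g* differed by -1.23 and *Lck* by -0.90 on the log2 scale (adjusted p = 7.5e-05 and 3.2e-05, edgeR). Of 5 T cell activation markers 4 were higher in *Rnmt* cKO cells in both kinds, beside 26.3% of all genes tested in total RNA and 14.1% in RPF. The activation marker sum in total RNA was 1281, 1276 and 1335 CPM in controls and 1613, 1880 and 1682 CPM in *Rnmt* cKO cells. *Cd44*, the hyaluronan receptor of activated T cells, rose by 2.19 and *Nr4a1*, an early gene of T cell receptor signalling, by 1.01 in total RNA (adjusted p = 0.0025 and 9.5e-05, edgeR), whereas *Tfrc*, the most abundant, did not pass the test. The *Cd44* difference was 1.54 without *Rnmt* cKO 2. Of the 4 increased markers 3 had control 3 as the highest control and *Rnmt* cKO 3 as the lowest *Rnmt* cKO library in total RNA, beside 27.5% of all increased genes. The part of this marker difference in the values below was not tested.

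Most of the SAM cycle and m6A genes differed little between genotypes in their share of the sequenced RNA. In total RNA *Ahcy* fell by 50.2%, *Mettl3* by 18.4%, *Mat2b* by 12.7% and *Wtap* by 10.6%, whereas *Ythdf2* rose 1.41-fold and the other 5 did not pass the test. The 4 decreased and 1 increased genes of 10 stand beside 28.0% decreased and 26.3% increased of all 11519 genes tested, and the median log2 fold change of the 10 was -0.06, against -0.00 for all genes tested. In RPF *Mettl14* fell by 23.4% and *Ythdf2* rose 1.17-fold. This was 1 decreased and 1 increased of 10, where 15.7% and 14.1% of 11428 genes were, and the medians were -0.11 for the 10 genes and 0.01 for all. Translation efficiency (TE) was compared as the change in RPF beyond that in total RNA, as the genotype by library kind interaction in a fit of the 12 libraries. No TE difference among the 10 passed the edgeR test, where 6.57% of 10668 genes decreased and 3.24% increased. *Mettl14* and *Ythdf2* were past an unadjusted p of 0.05, and DESeq2 found 0 of the 10. The share decreased in total RNA was thus above that of all genes and every other share was below it, differences of few genes in 10 that are not read as a result about them. The libraries of the genotypes did not overlap for 5 of the 10 genes in total RNA, 4 below and 1 above control, where 32.3% of all genes tested lay below and 30.0% above. In RPF they did not overlap for 4 of the 10, 3 below and 1 above, where 24.3% lay below and 22.2% above.

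**Figure D1:**
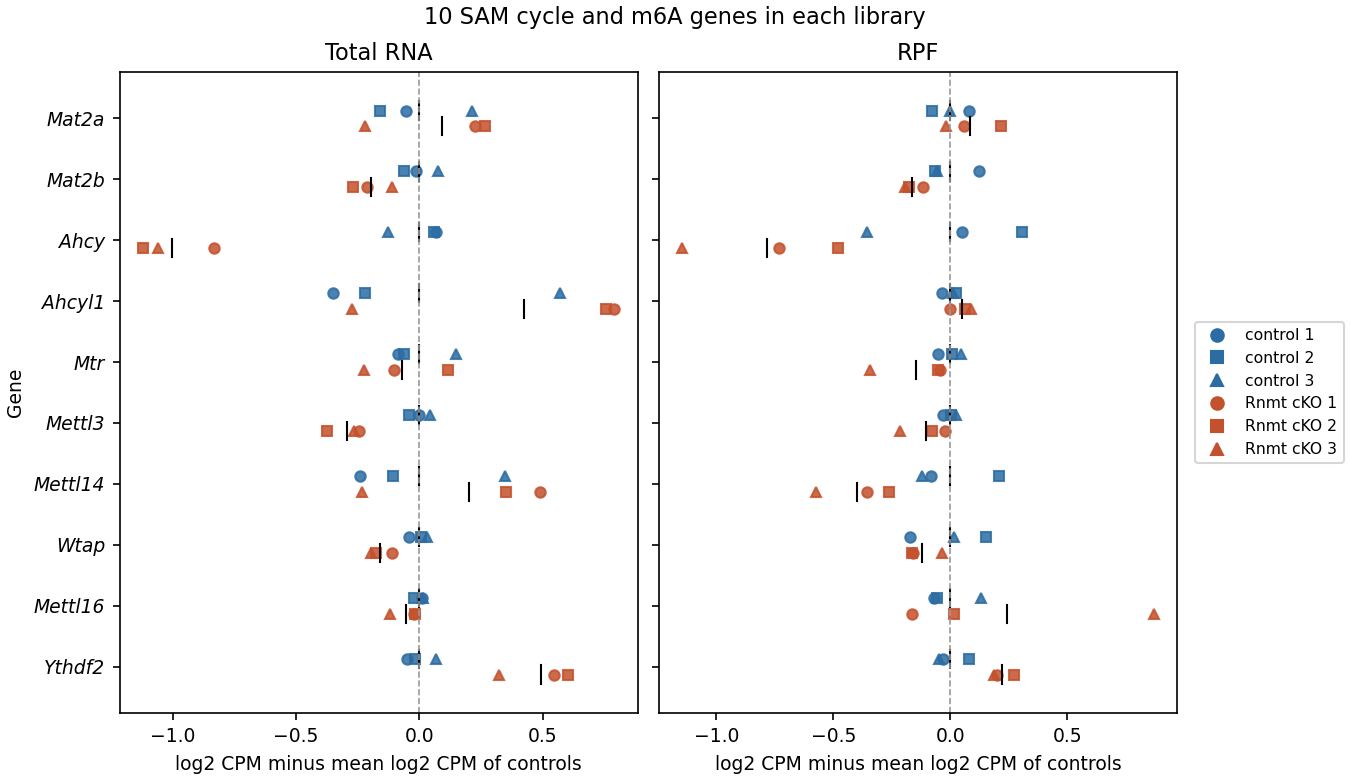
Values of the 10 genes in each library, as log2 CPM minus the mean log2 CPM of the 3 controls, in total RNA (left) and RPF (right). Each symbol is 1 library, blue for control and orange for *Rnmt* cKO, with the shape giving the replicate number, and black bars are group means. *Mat2b*, *Ahcy* and *Ythdf2* are separated in both panels, *Ahcyl1*, *Mettl14* and *Mat2a* are spread within each genotype in total RNA, and *Mettl16* RPFs are high in 1 *Rnmt* cKO library.

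**Figure D2:**
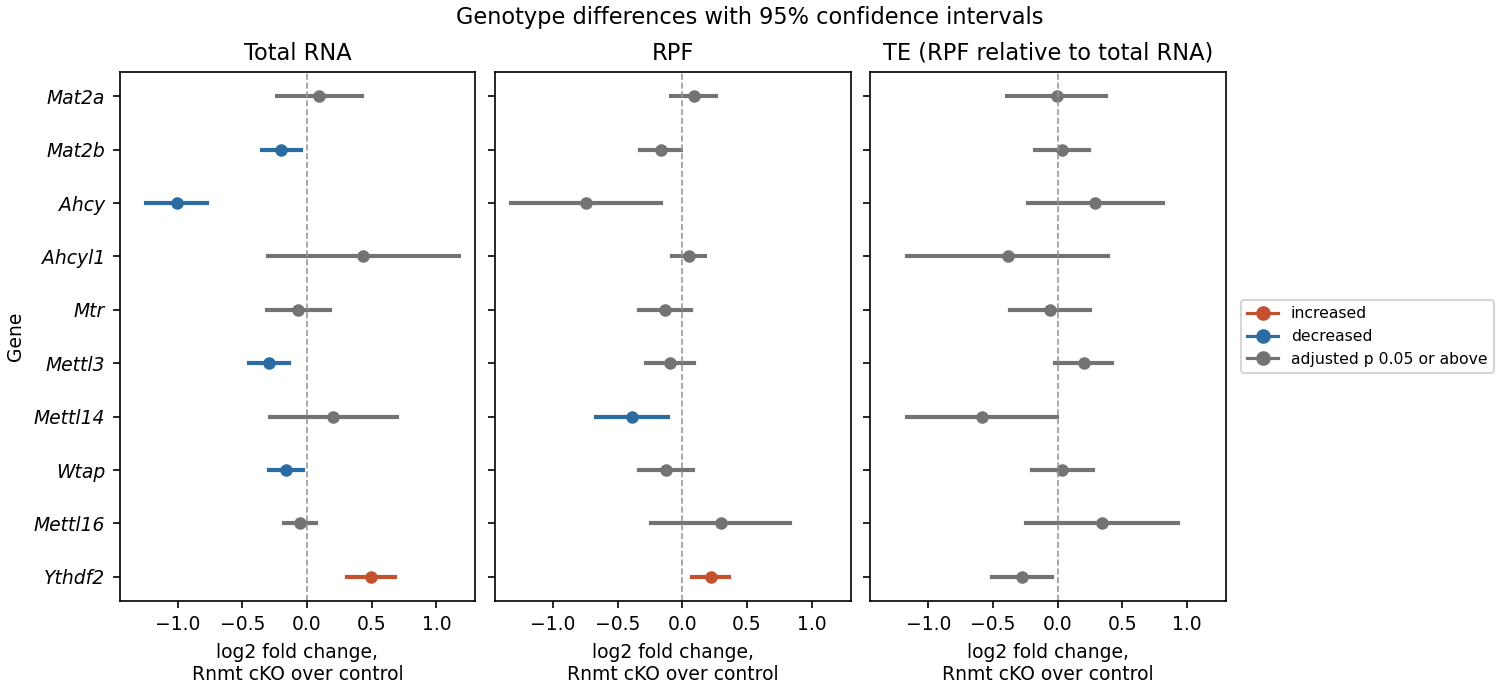
The log2 fold change of *Rnmt* cKO over control for each gene in total RNA, RPF and TE (points) with its 95% confidence interval from edgeR's fit (bars). Colour marks genes past an adjusted p of 0.05: 4 decreased and 1 increased in total RNA, 1 of each in RPF and 0 in TE.

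The genes of SAM synthesis were *Mat2a*, on chromosome 6 from 72432799 to 72439558 (GRCm38), and *Mat2b*, on chromosome 11 from 40679314 to 40695203. *Mat2a* total RNA was 119, 111 and 143 CPM in controls 1 to 3 and 145, 149 and 106 CPM in *Rnmt* cKO 1 to 3. Control 3 was thus near *Rnmt* cKO 1 and 2, and *Rnmt* cKO 3 was the lowest of the 6. Means were 124 ± 17.0 and 133 ± 23.4 CPM (SD, n = 3), and the log2 fold change of 0.10 had a 95% interval from -0.23 to 0.42 (adjusted p = 0.59, edgeR). *Mat2a* RPFs were 217, 194 and 205 CPM in controls and 214, 238 and 203 CPM in *Rnmt* cKO cells, with overlapping groups and a log2 fold change of 0.09 (interval -0.09 to 0.26). A change in *Mat2a* translation was not detectable, as the TE difference was -0.01 with an interval from -0.39 to 0.38. These values moved about 0 with the libraries used. Without control 3 and *Rnmt* cKO 1 and 2, leaving 1 *Rnmt* cKO library, the difference was -0.09 in total RNA and -0.01 in RPF.

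*Mat2b* was lower in *Rnmt* cKO cells by a small amount. Its total RNA was 140.2, 135 and 149 CPM in controls and 122, 117 and 131 CPM in *Rnmt* cKO cells, without overlap. The log2 fold change was -0.20 (standard error 0.06, adjusted p = 0.031, edgeR), and it was not past the threshold with DESeq2, without TMM, or when any of 4 of the 6 libraries was left out. Over all 16 alternatives it lay between -0.23 and -0.05. *Mat2b* RPFs were 193, 169 and 170.4 CPM in controls and 164, 157 and 155 CPM in *Rnmt* cKO cells, again without overlap, but the difference of -0.16 did not pass the test (adjusted p = 0.11, edgeR). The ratio of *Mat2a* to *Mat2b* RPF counts in a library was 1.13, 1.15 and 1.21 in controls and 1.31, 1.52 and 1.31 in *Rnmt* cKO cells. The catalytic subunit was thus higher relative to the regulatory subunit in all *Rnmt* cKO RPF libraries, by 0.25 on the log2 scale, and exact permutation of 3 against 3 can give no smaller p (two-sided exact p = 0.1, adjusted p = 0.16 over 8 ratios). In total RNA the same ratio overlapped between genotypes, with a difference of 0.29 (two-sided exact p = 0.4) that was 0.17 without *Rnmt* cKO 2 and 0.49 without *Rnmt* cKO 3.

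A lncRNA and the 5′ end of *Mat2a* share sequence on opposite strands: *Particl* (72439051 to 72440610, plus strand of chromosome 6), named here for this overlap and outside the rule for named genes. *Particl* total RNA was 2.97, 2.96 and 2.70 CPM in controls and 8.15, 8.05 and 10.0 CPM in *Rnmt* cKO cells. It rose in all *Rnmt* cKO libraries, by 1.60 on the log2 scale (standard error 0.14, adjusted p = 7.2e-05, edgeR), while its RPF counts were low and overlapped, at 1.45 ± 0.760 and 2.33 ± 0.796 CPM (SD, n = 3). The counts were strand-specific, so that these reads were not part of the *Mat2a* value.

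*Ahcy* (chromosome 2, 155059310 to 155074497) and its relative *Ahcyl1* (chromosome 3, 107663118 to 107696560) gave the largest and the most variable difference of the 10 in total RNA. AHCY hydrolyses SAH, whereas AHCYL1 lacks hydrolase activity and binds the IP3 receptor. *Ahcy* total RNA was 33.6, 33.5 and 29.4 CPM in controls and 18.0, 14.8 and 15.4 CPM in *Rnmt* cKO cells. The genotypes did not overlap, and *Ahcy* fell by 1.01 on the log2 scale (standard error 0.10, adjusted p = 0.0001, edgeR). It kept this call and lay between -1.10 and -0.93 under all 16 alternatives run. *Ahcy* RPFs were 8.45, 10.1 and 6.37 CPM in controls and 4.91, 5.86 and 3.69 CPM in *Rnmt* cKO cells, without overlap. With 15 to 90 reads in a library, the RPF difference of -0.75 (interval -1.32 to -0.17) did not pass the test (adjusted p = 0.056, edgeR), although it did under 7 of 16 alternatives. The TE difference of 0.29 had an interval from -0.23 to 0.81 and was 0.060 without *Rnmt* cKO 2.

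The *Ahcy* counts represent a small part of the mRNA. Of the 1271 words of 29 bases, about the length of a footprint, in the *Ahcy* coding sequence, 98.6% also occurred in 4 other annotated genes, mostly the *Ahcy* copy *Gm4737*, and 79.7% of the words of the whole transcript were shared. The authors counted only reads that aligned to 1 place, so reads of the shared stretches were left out in both genotypes. *Gm4737* itself had 1.14 ± 0.192 CPM in control and 0.931 ± 0.199 CPM in *Rnmt* cKO total RNA (SD, n = 3), with overlap. *Mat2a*, *Wtap* and *Ythdf2* also shared part of their coding words with pseudogenes, 45.2%, 47.4% and 36.3%, whereas *Mat2b*, *Ahcyl1*, *Mtr*, *Mettl14* and *Mettl16* shared none and *Mettl3* shared 10.1% with the gene on the opposite strand of its own locus. The fold changes of the first 3 were measured on their remaining words.

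*Ahcyl1* total RNA was 39.3, 43.0 and 74.4 CPM in controls 1 to 3 and 86.7, 84.6 and 41.5 CPM in *Rnmt* cKO 1 to 3. Control 3 and *Rnmt* cKO 1 and 2 were high and the other 3 libraries low, and the groups overlapped. The log2 fold change of 0.44 had an interval from -0.30 to 1.18 (adjusted p = 0.28, edgeR). It was 0.03 without those 3 high libraries, which left 1 *Rnmt* cKO library. As the 3 were picked for their high *Ahcyl1*, this value cannot show whether the genotypes differ. Leaving out *Rnmt* cKO 3 alone raised the fold change to 0.72, past the threshold (adjusted p = 0.036, edgeR), as did testing without a filter on low counts. With 1 library left out it lay between 0.26 (without control 1) and 0.78 (without control 3). *Ahcyl1* RPFs did not share this spread and were 197, 205 and 203 CPM in controls and 201, 210.4 and 214 CPM in *Rnmt* cKO cells. The RPF difference was 0.05 with an interval from -0.08 to 0.18. The ratio of RPF to total RNA was accordingly 5.01, 4.76 and 2.73 in controls and 2.32, 2.49 and 5.17 in *Rnmt* cKO cells, high in the libraries with low *Ahcyl1* total RNA of either genotype. The ratio of *Ahcy* to *Ahcyl1* counts was lower in all *Rnmt* cKO libraries, by -1.43 on the log2 scale in total RNA and -0.83 in RPF (two-sided exact p = 0.1 in each, the smallest that 3 against 3 allows, adjusted p = 0.16 over 8 ratios).

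The 3 libraries with high *Ahcyl1* total RNA stood apart in other genes as well. *Mettl14* and *Mat2a* total RNA had the same order of high and low libraries. So did 5 B cell markers, *Cd79a*, *Cd79b*, *Ms4a1*, *Pax5* and *Cd22*, whose summed total RNA was 7.43, 4.76 and 26.5 CPM in controls 1 to 3 and 69.5, 89.4 and 15.7 CPM in *Rnmt* cKO 1 to 3. Of these 5 and *Ighm*, 5 genes were tested in total RNA, 3 increased and *Ighm*, the most abundant, decreased by -0.44 on the log2 scale (adjusted p = 0.0062, edgeR). The increases of *Cd22* and *Ms4a1* lost their calls in 4 of the 6 settings that left out 1 library, at 1.82 to 3.77 and 1.73 to 3.49. With *Ighm* the sum was 295, 289 and 299 CPM in controls and 311, 284 and 202 CPM in *Rnmt* cKO cells. In RPF the 5 markers gave 9.77, 7.69 and 29.3 CPM in controls and 102, 116 and 16.5 CPM in *Rnmt* cKO cells, so the marker pattern was present in RPF where that of *Ahcyl1* was not. In a looser form of this order, with control 3 the highest control and *Rnmt* cKO 3 the lowest *Rnmt* cKO library, stood 7 of the 10 genes in total RNA, all but *Mat2b*, *Ahcy* and *Mettl3*, beside 19.6% of all genes tested. The order was first seen in *Ahcyl1*, *Mettl14* and *Mat2a*, which are among these 7. The count is therefore not independent of the 10 genes and is not read as an excess over that share. The part of B cell RNA in these values was not tested. Of other cell types, the 2 CD8 T cell markers summed to between 9.85 and 41.7 CPM in total RNA, highest in control 3 and lowest in *Rnmt* cKO 3. The 7 myeloid markers summed to at most 2.58 CPM in total RNA, with *Cd68* the most abundant, and the 5 NK cell markers to at most 1.90 CPM, with *Klra8* at 0 in every library. Of the 3 regulatory T cell markers, whose sum was between 6.25 and 17.4 CPM in total RNA, 2 increased and *Foxp3* was too low to test. Of these 2, *Lrrc32* lost its call in 5 of 6 settings that left out 1 library, at 0.56 to 1.37.

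**Figure D3:**
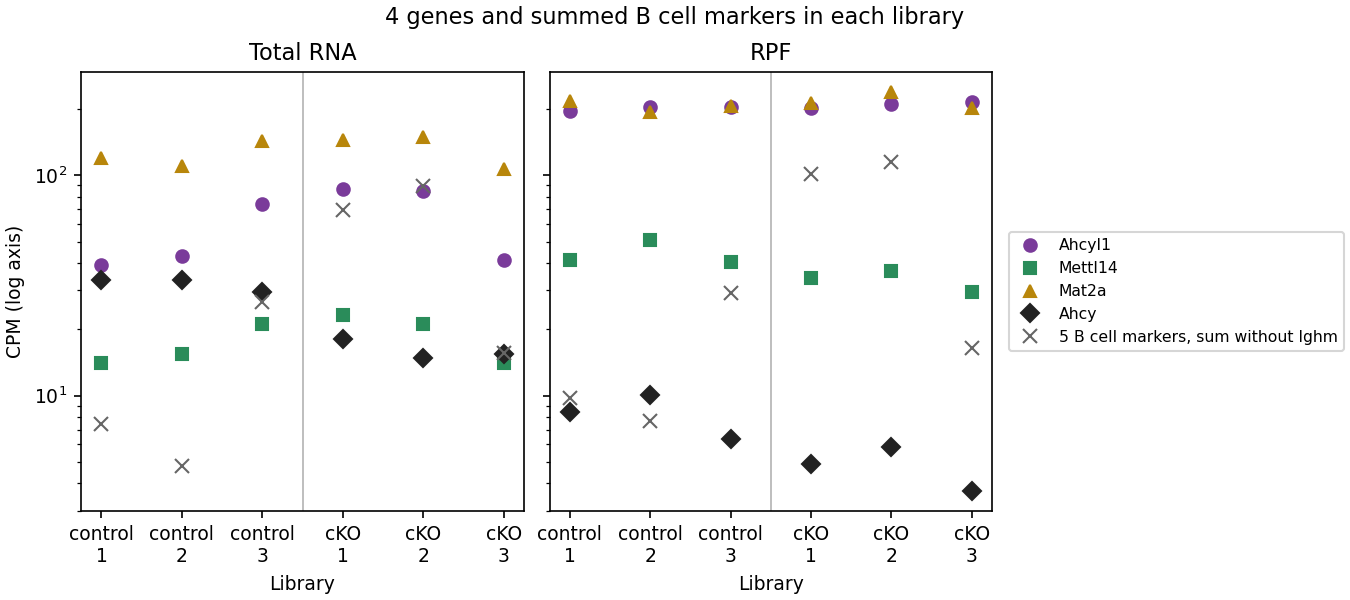
CPM of *Ahcyl1*, *Mettl14*, *Mat2a* and *Ahcy* and the sum of 5 B cell markers without *Ighm* in each of the 6 total RNA (left) and 6 RPF libraries (right), on a log axis, with control left and *Rnmt* cKO right of the line. In total RNA *Ahcyl1*, *Mettl14*, *Mat2a* and the markers are highest in control 3 among controls and in *Rnmt* cKO 1 and 2 among *Rnmt* cKO cells, while in RPF *Ahcyl1* stays between 197 and 214 CPM.

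*Mtr* (chromosome 13, 12182712 to 12258113) encodes the enzyme that remethylates homocysteine. *Mtr* total RNA was 43.1, 43.9 and 50.7 CPM in controls and 42.6, 49.6 and 39.2 CPM in *Rnmt* cKO cells, and its RPFs were 105, 109 and 113 CPM and 106, 105 and 85.9 CPM. The groups overlapped in both kinds, with log2 fold changes of -0.07 (interval -0.31 to 0.18) and -0.13 (interval -0.34 to 0.07), neither of which passed the test. The RPF difference was -0.042 without *Rnmt* cKO 3.

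Of the m6A writers, *Mettl3* (chromosome 14, 52294841 to 52305128) was lower in total RNA. It was 45.3, 44.0 and 46.7 CPM in controls and 38.3, 35.0 and 37.7 CPM in *Rnmt* cKO cells, without overlap and with little spread. *Mettl3* fell by 0.29 on the log2 scale (standard error 0.07, adjusted p = 0.0069, edgeR). *Mettl3* RPFs were 46.1, 47.2 and 47.9 CPM in controls and 46.3, 44.6 and 40.6 CPM in *Rnmt* cKO cells, which overlapped, with a difference of -0.10 (interval -0.28 to 0.09). The TE difference of 0.20 did not pass the test (adjusted p = 0.24, edgeR). The 3′ end of *Mettl3* overlaps that of *Tox4* on the opposite strand, and *Tox4*, also named for its position, rose from 115, 118 and 115 CPM in control total RNA to 253, 234 and 245 CPM in *Rnmt* cKO total RNA. Its log2 fold change was 1.07 in total RNA and -1.17 in TE (adjusted p = 9.2e-06 and 5.1e-06, edgeR), with RPFs of 113 ± 4.87 and 105 ± 5.74 CPM (SD, n = 3) that overlapped. The counts on the strand opposite to *Mettl3* moved with it, from 8.46 ± 0.700 to 18.4 ± 1.12 CPM (SD, n = 3), and on the counts of both strands together the *Mettl3* difference kept its direction and its call.

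*Mettl14* (chromosome 3, 123368297 to 123386108), which supports the catalytic subunit in binding RNA, was lower in RPF. Its RPFs were 41.4, 50.6 and 40.3 CPM in controls and 34.3, 36.6 and 29.5 CPM in *Rnmt* cKO cells, without overlap. *Mettl14* RPFs fell by 0.39 on the log2 scale (standard error 0.12, adjusted p = 0.044, edgeR), and it was past the threshold in 8 of 16 alternatives, but not with DESeq2 or when any of 5 of the 6 libraries was left out, with values between -0.63 and -0.28. In total RNA *Mettl14* was 14.0, 15.4 and 21.1 CPM in controls and 23.3, 21.2 and 14.1 CPM in *Rnmt* cKO cells. This was the library order of *Ahcyl1*, and the difference of 0.20 (interval -0.29 to 0.70) did not pass the test. It was 0.076 without *Rnmt* cKO 1 and 0.41 without *Rnmt* cKO 3. The TE difference of -0.58 was the largest in size among the 10 (unadjusted p = 0.048, adjusted p = 0.20, edgeR). The ratio of *Mettl3* to *Mettl14* RPF counts was 1.11, 0.932 and 1.19 in controls and 1.35, 1.22 and 1.38 in *Rnmt* cKO cells, higher in each *Rnmt* cKO library by 0.29 on the log2 scale (two-sided exact p = 0.1, the smallest possible, adjusted p = 0.16). This difference was 0.19 without control 2 and 0.37 without control 3. In total RNA this ratio differed by -0.50 in the opposite direction, with overlap (two-sided exact p = 0.2).

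*Wtap* (chromosome 17, 12966796 to 12994169), the adaptor that holds the writer in nuclear speckles, was 72.1, 74.5 and 75.8 CPM in control and 68.6, 65.7 and 64.7 CPM in *Rnmt* cKO total RNA. The groups did not overlap, and the log2 fold change of -0.16 was close to the threshold (standard error 0.06, adjusted p = 0.041, edgeR). It was past the threshold in 4 of 16 alternatives, and it was not when any of the 6 libraries was left out, at -0.19 to -0.13. *Wtap* RPFs of 79.2, 99.2 and 90.1 CPM in controls and 79.7, 79.6 and 86.9 CPM in *Rnmt* cKO cells overlapped.

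*Mettl16* (chromosome 11, 74770830 to 74828525), the writer of the *Mat2a* sites above, had nearly the same total RNA in all libraries, at 110.3, 108 and 111 CPM in controls and 108, 108 and 101 CPM in *Rnmt* cKO cells. The log2 fold change was -0.05 with an interval from -0.17 to 0.07. *Mettl16* RPFs were 121, 122 and 139.5 CPM in controls and 114, 129 and 233 CPM in *Rnmt* cKO cells. A single library, *Rnmt* cKO 3, was high, the shallowest of the RPF libraries, in which 6.19% of all reads fell outside genes against 2.08 to 3.81% in the others. The RPF difference was 0.30 (adjusted p = 0.37, edgeR) with this library and -0.07 without it, and the TE difference was 0.34 with it and -0.06 without it.

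*Ythdf2* (chromosome 4, 132184912 to 132212303), the m6A reader of the 10, was higher in *Rnmt* cKO cells in both kinds of library. Its total RNA was 109, 112 and 119 CPM in controls and 165, 172 and 142 CPM in *Rnmt* cKO cells, and its RPFs were 154, 166 and 152 CPM and 181, 190.0 and 179 CPM. Neither kind overlapped. *Ythdf2* rose by 0.49 on the log2 scale in total RNA (standard error 0.08, adjusted p = 0.0013, edgeR) and 0.22 in RPF (standard error 0.06, adjusted p = 0.029, edgeR). In total RNA control 3 was the highest control and *Rnmt* cKO 3 the lowest *Rnmt* cKO library, as for the B cell markers, whose part was not tested. Without control 3, *Rnmt* cKO 1 and *Rnmt* cKO 2 the difference was 0.38, between 2 controls and 1 *Rnmt* cKO library. The total RNA call held in all 16 alternatives, whereas the RPF call was lost in 7 of 16, at between 0.17 and 0.26. RPFs rose less than total RNA, and the TE difference of -0.27 (interval -0.50 to -0.04) did not pass the test after adjustment (unadjusted p = 0.024, adjusted p = 0.13, edgeR).

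Levels between genes were compared per length, as RPKM, reads per kb of exon and per 1000000 counted reads, in total RNA and per kb of coding sequence in RPF. In control total RNA the levels ran from 59.4 ± 2.05 for *Mat2b* (SD, n = 3) through 36.1 for *Mat2a*, 27.0 for *Ythdf2*, 22.1 for *Mettl3*, 14.9 for *Wtap*, 13.3 for *Ahcyl1*, 12.5 for *Ahcy*, 8.50 for *Mettl16* and 5.45 for *Mtr* to 2.25 ± 0.469 for *Mettl14*. *Wtap* and *Ahcyl1*, and *Ahcyl1* and *Ahcy*, did not differ beyond the spread of their libraries. In control RPF the levels were 170.3 ± 14.1 for *Mat2b* and 170.2 ± 11.2 for *Mat2a*, which overlapped, then 126 for *Ahcyl1*, 89.7 for *Ythdf2*, 74.4 for *Wtap*, 71.1 for *Mettl16*, 30.3 for *Mettl14*, 28.7 for *Mtr*, 26.8 for *Mettl3* and 6.34 for *Ahcy*. *Wtap* and *Mettl16*, and *Mettl14* and *Mtr*, overlapped. The catalytic writer *Mettl3* thus stood above its partner *Mettl14* in total RNA and below it in RPF, on this scale.

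These orders changed when the level was taken per kb of unshared words of the main transcript, a setting added after the values were seen. It changed both the length, from all exons to 1 transcript, and the words counted, so that *Mettl14*, which shared none, also moved. In control total RNA the order was then *Mat2b* at 68.9, *Ahcy* at 62.1, *Mat2a* at 57.5, *Wtap* at 50.0, *Ythdf2* at 32.2, *Mettl3* at 26.6, *Ahcyl1* at 13.4, *Mettl16* at 8.70, *Mettl14* at 6.11 and *Mtr* at 5.47, of which *Ahcy* and *Mat2a*, and *Mettl14* and *Mtr*, overlapped. In control RPF it was *Ahcy* at 456, *Mat2a* at 320.0, *Mat2b* at 186, *Wtap* at 145, *Ythdf2* at 143, *Ahcyl1* at 128, *Mettl16* at 77.4, *Mettl14* at 32.5, *Mettl3* at 30.2 and *Mtr* at 28.9. *Wtap* and *Ythdf2*, *Mettl14* and *Mettl3*, and *Mettl3* and *Mtr* overlapped. *Mettl3* was thus above *Mettl14* in total RNA on both scales. For *Mettl3* the words left out were those of *Tox4* at the same place on the opposite strand. Strand-specific counts keep such reads, so that this scale raises *Mettl3*. Its overlap with *Mettl14* in RPF is therefore not read as a lack of difference. The RPF value for *Ahcy* rests on 18 unshared coding words and moved to 513 and 411 with words 1 base shorter and 1 base longer. The RPF counts were those of all exons, however, and the whole *Ahcy* transcript held 511 unshared words. Reads outside the coding sequence can thus raise this value, and the place of *Ahcy* in RPF is not read as its level.

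**Figure D4:**
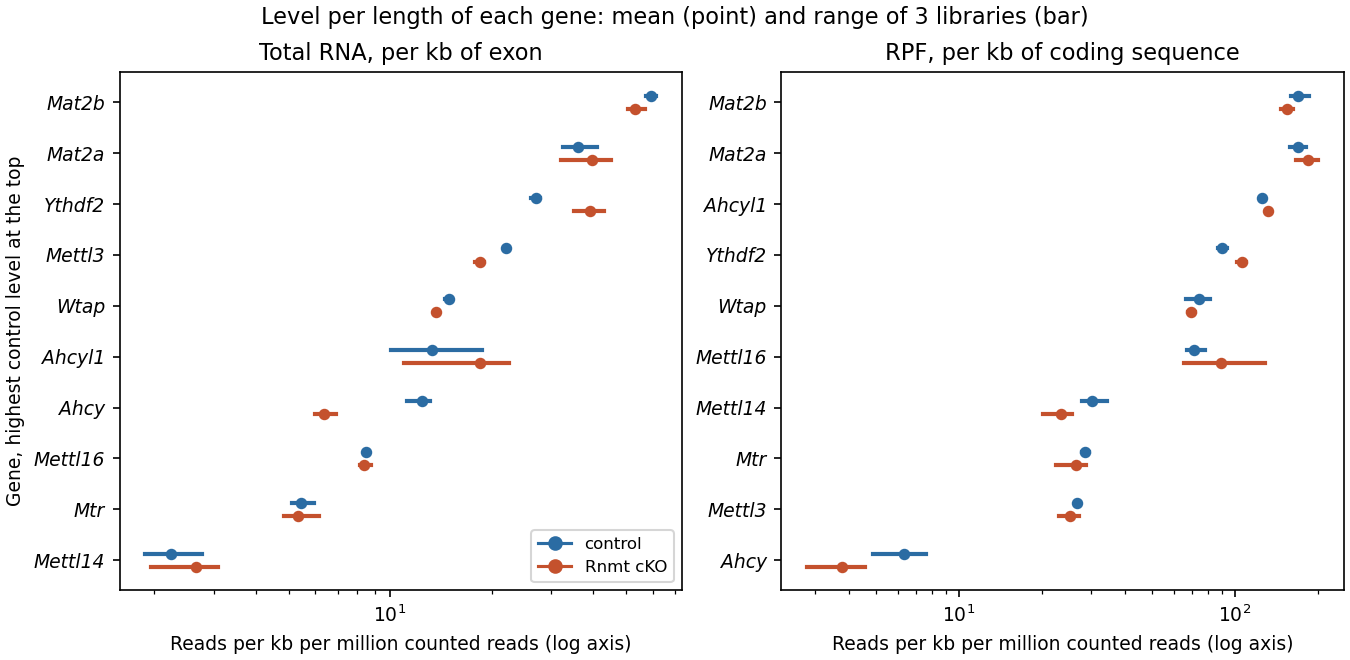
Level of each gene per length, in RPKM on log axes, in total RNA per kb of exon (left) and in RPF per kb of coding sequence (right), ordered by the control mean. Points are means and bars the range of 3 libraries, blue for control and orange for *Rnmt* cKO. *Mat2b* is highest in total RNA and overlaps *Mat2a* in RPF, and *Ahcyl1* is at 126 in RPF and at 13.3 in total RNA in controls. The orders differ per kb of unshared words of the main transcript.

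The genes also differed in how many RPFs they gave per total RNA in control cells. The ratio of mean RPF CPM to mean total RNA CPM was 3.86 for *Ahcyl1*, at the 96.0 percentile of 10668 genes, 2.62 for *Mettl14* (90.6 percentile) and 2.37 for *Mtr* (88.1 percentile), against a median of 1.14 over all genes. *Mat2a* had a ratio of 1.65 (72.8 percentile), and *Mat2b*, *Mettl3*, *Wtap*, *Mettl16* and *Ythdf2* lay between 1.04 and 1.39. *Ahcy* had a ratio of 0.259 (3.42 percentile), but 98.6% of its coding words and 79.7% of its transcript words were shared, so that RPFs and total RNA lost different parts of its reads. Per kb of unshared words the ratio of RPF to total RNA was 7.35 for *Ahcy*, in place 3 of the 10 behind *Ahcyl1* at 9.53 and *Mettl16* at 8.90, against 5.56 for *Mat2a* and 1.14 for *Mettl3*, the lowest. The 7.35 divides RPF counts of all exons by the few unshared coding words of *Ahcy*, so that its place is not read either. Neither the low nor the high *Ahcy* ratio is therefore read as its RPF yield.

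The genes whose values over the 12 libraries were most like those of a given gene were taken from 6609 genes whose log2 CPM averaged at least 4 in each kind, by the root mean square difference of log2 CPM centred within each kind. For *Ythdf2* these were *Atf6b*, *Son* and *Dlst*, at 0.04 to 0.05, where *Ythdf2* itself varied by 0.20. For *Ahcyl1* they were *Anapc2*, *Grb2* and *Fnbp1*, at 0.07 to 0.10 beside its own 0.35. For *Mettl16*, which varied through 1 library, *Kdm6a* was nearest at 0.08 and the next, *Icmt*, was at 0.15. For *Ahcy* the nearest genes, *Asah1*, *Mettl23* and *Man2b1*, were at 0.16 beside its own 0.49, farther than for the other 9 genes. *Ahcy* RPFs themselves averaged below the minimum of 4, so that genes with RPF counts as low were not compared. Its larger distance is therefore not read as a result. None of the 10 was among the 3 nearest genes of another.

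Other genes of these pathways were described from lists of 103 genes, beside the shares given above for all genes. Of the calls named from these lists, 19 of 25 in total RNA, 14 of 21 in RPF and 4 of 9 in TE held when each library was left out in turn. Those lost in 4 or 5 of the 6 such settings were *Mmachc*, *Mettl5*, *Ythdf1* and *Cnot1* in total RNA, *Lmbrd1*, *Slc3a2*, *Trmt112*, *Ythdf1*, *Cnot7*, *Cnot6l* and *Tfb1m* in RPF, and *Adk*, *Fmr1* and *Tgs1* in TE. Of 11 further genes of the methionine cycle, 5 were tested in total RNA, of which *Ahcyl2*, a relative of *Ahcyl1*, rose by 0.43 and *Mtrr*, the reductase that reactivates MTR, rose by 0.38, whereas *Adk*, the kinase that removes the adenosine made by AHCY, fell by 0.57 on the log2 scale (adjusted p = 0.0017, 0.0026 and 0.00024, edgeR). *Ahcyl2* and *Mtrr* also rose in RPF, by 0.39 and 0.36. *Mat1a*, *Bhmt*, *Bhmt2*, *Gnmt* and *Cbs*, which are mainly genes of the liver, were too low to test in both kinds. The 11 genes of methionine salvage and cobalamin handling had 3 increased and 3 decreased in total RNA. *Mmadhc* and *Mmachc*, which process cobalamin inside the cell, rose by 0.35 and 0.26, while the cobalamin transporter gene *Abcd4* and the transcobalamin receptor gene *Cd320* fell by 0.59 and 0.56. In RPF *Mmadhc* rose by 0.45, and *Cd320* and *Lmbrd1* fell by 0.44 and 0.27.

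Genes of methionine uptake had 4 increased and 0 decreased of 6 in total RNA, with a median of 0.44 against -0.00 for all genes. *Slc7a5*, the large neutral amino acid transporter, was 88.1, 88.7 and 87.9 CPM in controls and 149.6, 169 and 134 CPM in *Rnmt* cKO cells, a rise of 0.77 on the log2 scale (adjusted p = 0.00019, edgeR), and *Slc43a1*, at 0.690 to 1.19 CPM in controls, rose by 1.36. In RPF *Slc7a5* rose by 0.30 and its heavy chain partner *Slc3a2* by 0.22. *Slc7a5* had a lower TE in *Rnmt* cKO cells, by -0.47 (adjusted p = 0.015, edgeR). Of the 4 genes that rose in total RNA, 3 had control 3 as the highest control and *Rnmt* cKO 3 as the lowest *Rnmt* cKO library, as the B cell markers did, beside 27.5% of all increased genes. *Slc7a5* was the exception.

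The other m6A writers moved both ways, with 4 increased and 3 decreased of 10 in total RNA. *Cbll1* and *Rbm15* of the writer complex rose by 0.82 and 0.40, whereas *Virma*, its scaffold, fell by 0.48 and *Mettl5*, a writer of ribosomal RNA, by 0.34 (adjusted p = 0.00049, 0.0049, 0.00039 and 0.028, edgeR). In RPF *Cbll1* and *Trmt112* rose by 0.62 and 0.67, and *Virma* and *Pcif1*, which methylates adenosine next to the cap, fell by 0.38 and 0.44. Of the 2 eraser genes, *Alkbh5* rose by 0.27 in total RNA and neither passed in RPF. The other readers had 4 increased and 1 decreased of 11 tested in total RNA, with a median of 0.33. *Elavl1* and *Ythdf1* rose by 0.65 and 0.47 and *Rbmx* fell by 0.86 (adjusted p = 0.0069, 0.040 and 9.9e-05, edgeR). In RPF *Ythdf1* and *Ythdf3*, the paralogues of *Ythdf2*, rose by 0.22 and 0.29, and *Rbmx* fell by 0.72. *Rbm15*, *Virma*, *Alkbh5*, *Ythdf1* and *Elavl1* total RNA were highest in control 3 among controls and lowest in *Rnmt* cKO 3 among *Rnmt* cKO cells, as were *Mmadhc* and *Abcd4* above, the library order of the B cell markers, whose part in these values was not tested.

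The CCR4-NOT genes, whose deadenylase YTHDF2 recruits, had 5 increased and 0 decreased of 11 in total RNA, with a median of 0.30 against -0.00 for all genes. *Cnot3* and *Cnot1* rose by 0.65 and 0.56 (adjusted p = 0.018 and 0.038, edgeR), both again highest in control 3 among controls. In RPF *Cnot7*, a catalytic subunit, rose by 0.42, and *Cnot10* and *Cnot6l* fell by 0.39 and 0.24. In TE 3 decreased and 0 increased of 11, with a median of -0.39 against 0.04 for all genes, among them *Cnot2* by -0.45 and *Cnot10* by -0.44 (adjusted p = 0.0071 and 0.0027, edgeR). Of 3 genes of the nuclear step through which METTL16 acts on *Mat2a* splicing, *Cpsf6* rose by 0.44 and *Nudt21* fell by 0.43 in total RNA, and *Cpsf6* TE was lower by -0.44 (adjusted p = 0.0034, edgeR).

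The 36 other genes of RNA methyltransferases and their partner subunits had 16 increased and 6 decreased in total RNA, with a median of 0.15. *Nsun2*, a cytosine methyltransferase of tRNA and mRNA, was 483, 462 and 484 CPM in controls and 929.8, 908 and 947 CPM in *Rnmt* cKO cells, a rise of 0.96 on the log2 scale, and *Trmt10c* of the mitochondrial tRNA pathway rose by 0.95 (adjusted p = 1.5e-05 and 1.3e-05, edgeR). *Mettl8*, which methylates mitochondrial tRNA, fell by 1.27 and *Trdmt1* by 0.66. In RPF 8 increased and 4 decreased, with *Trmt61a* and *Cmtr2*, a cap ribose methyltransferase, up by 0.73 and 0.64 and *Mettl8* and *Tfb1m* down by -1.65 and -0.42. In TE 1 increased and 6 decreased. *Nsun2* RPFs were 584, 558 and 556 CPM in controls and 585, 614 and 582 CPM in *Rnmt* cKO cells, so that the TE difference was -0.89 (adjusted p = 2.3e-05, edgeR). *Tgs1*, which trimethylates the cap of small nuclear RNA, differed by -0.90 in TE (adjusted p = 0.019, edgeR), and its total RNA had the library order of the B cell markers, with a difference of 0.94, or 0.56 without control 3, *Rnmt* cKO 1 and *Rnmt* cKO 2, which left 1 *Rnmt* cKO library. *Trmt1* differed by 0.35 in TE.

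**Figure D5:**
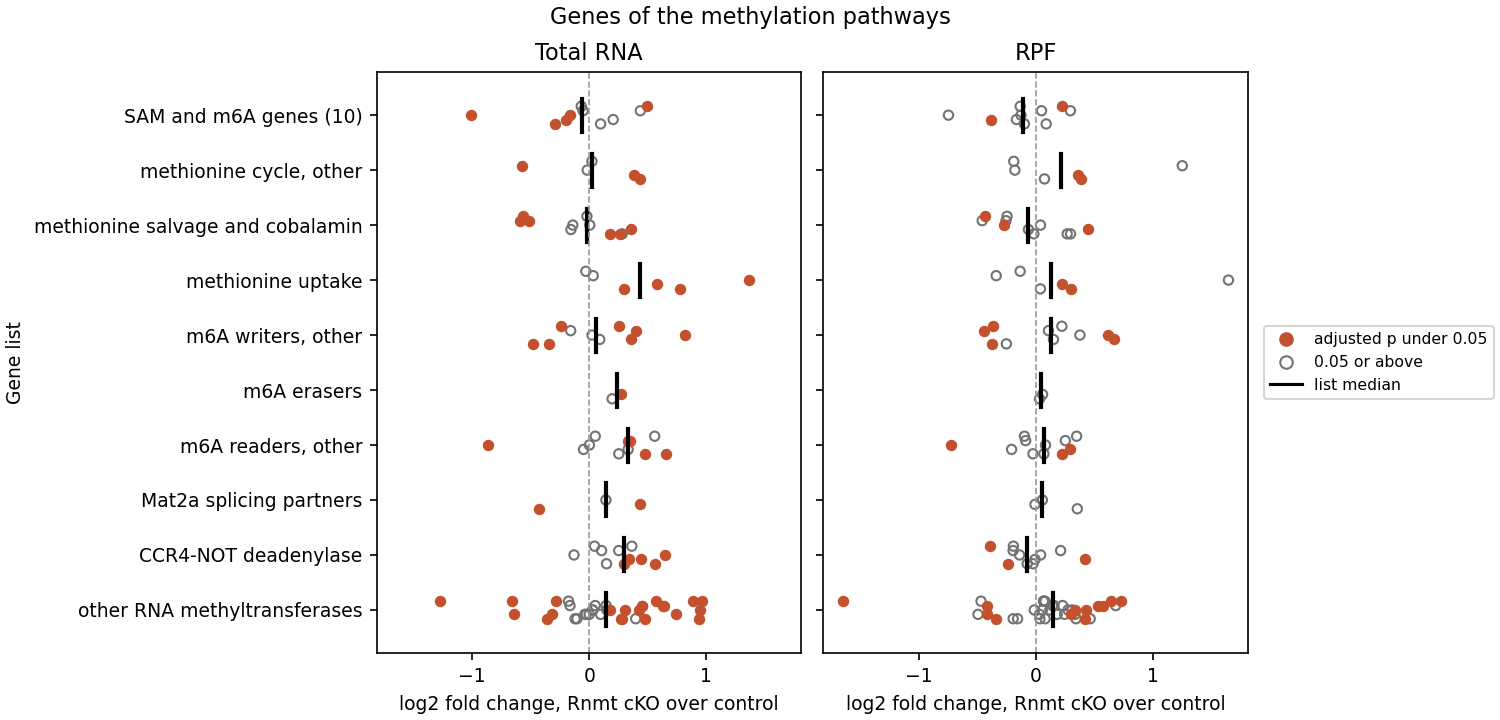
The log2 fold change of *Rnmt* cKO over control for the 10 SAM cycle and m6A genes and for each other gene list, in total RNA (left) and RPF (right). Each circle is 1 gene, filled where the adjusted p was under 0.05, and black bars are list medians. Among the 10 genes and the lists of other genes of these pathways, medians in total RNA ran from -0.06 for the 10 genes to 0.44 for methionine uptake.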

How the data were processed

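The authors selected read 2, trimmed adapters (Cutadapt), discarded reads matching rRNA or tRNA (Bowtie), and aligned the rest to mm10 with STAR 2.5.2b and the GENCODE vM12 basic annotation. They deposited whole-number counts of uniquely aligned reads per gene, without normalization, and a table of 10126 genes with normalized signal values per library. That table also holds the authors' log2 fold changes and p-values, which were not used. The counts of the reverse strand were used, since they gave the authors' deposited signal up to 1 factor per library in 100% of genes, within a relative tolerance of 1e-06. Symbols, positions and 3′ UTRs came from GENCODE vM21 (GRCm38), in which 49326 of the 49585 genes were found. Reads that were unmapped, multimapping, ambiguous or outside genes were kept out of library sizes, whereas mitochondrial rRNA, 18.7 to 23.6% of counts in total RNA and 2.30 to 4.51% in RPF, was kept in.

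Genes were tested where 3 or more of the 6 total RNA or RPF libraries exceeded a CPM of 1, by edgeR 4.0.16 (R 4.3.3) with TMM scaling and its quasi-likelihood test, with Benjamini-Hochberg adjustment over all genes tested and a threshold of 0.05. TE was the genotype by library kind interaction in 1 fit of the 12 libraries, with TMM within each kind. RiboDiff, which the study used for TE, was not used here. The log2 fold changes had median standard errors of 0.10 (total RNA), 0.12 (RPF) and 0.16 (TE). Same-numbered total RNA and RPF libraries deviated together from their group means (correlations across genes of 0.16 to 0.38 in controls and 0.11 to 0.36 in *Rnmt* cKO cells). The number was therefore taken to mark a culture. The TE values, intervals and p-values in the text come from the fit without this pairing, and a fit with a block for the culture was run as an alternative. Ratios of counts within a library were compared by two-sided exact permutation tests. The test was checked on simulated counts, drawn with the same spread for all genes. At a log2 change of 1 it recovered 91 of 99 changed genes in total RNA, 183 of 198 in RPF and 66 of 99 in TE. TE differences of that size can thus be missed. Words of 29 bases were compared between a gene's transcript and all others of the annotation on both strands.

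The 10 genes, the 16 gene lists and the tests were chosen with earlier results of these data known. From each list the text names at most the 2 largest rises and 2 largest falls past the threshold per comparison, beside the genes that make up a marker sum. One listed marker gene is not reported here. *Particl*, *Tox4* and *Gm4737* were added for their position or sequence, and other genes were chosen after their values were seen. Alternatives were DESeq2 1.42.0, library sizes without TMM, edgeR's exact test, other filters, both strands, protein-coding genes alone, replicate blocks, unadjusted p-values and each replicate left out. Leaving out control 3, *Rnmt* cKO 1 and *Rnmt* cKO 2 together was chosen after seeing the data. Python 3.11.15 with pandas 2.3.3, scipy 1.17.1 and matplotlib 3.10.9 served for tables and figures.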

Additional observations from a re-analysis of the deposited data

Results flagged for a closer look

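For 12 genes named in the text the genotype difference was not the same in RPF as in total RNA, by the edgeR test of the interaction (adjusted p under 0.05). RPF minus total RNA, on the log2 scale, was -1.62 for *Rnmt*, -1.17 for *Tox4*, -0.90 for *Tgs1*, -0.89 for *Nsun2*, -0.52 for *Trmt10c*, -0.47 for *Slc7a5* and -0.45 for *Cnot2*. It was -0.44 for each of *Cnot10*, *Cpsf6* and *Fmr1*, 0.38 for *Adk* and 0.35 for *Trmt1*. Without replicates, in turn, the calls of *Adk*, *Fmr1*, *Slc7a5*, *Tgs1* and *Trmt1* were lost at least once. The *Fmr1* call was also lost in the fit with a block for the culture, as given below.

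Counts on the strand opposite to 2 of the 10 genes, which entered only the alternative with the counts of both strands, were higher in *Rnmt* cKO total RNA than in control. They were 1.97 ± 0.793 against 0.702 ± 0.268 CPM (SD, n = 3) for *Mat2a*, where *Particl* lies on that strand. For *Mettl3*, where *Tox4* does, they were 18.4 ± 1.12 against 8.46 ± 0.700 CPM (SD, n = 3). No group held the 4 libraries that a search for outlying samples needs.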

How the results depend on the processing

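Among the 10 genes, the total RNA calls of *Ahcy* and *Ythdf2* held in all 16 alternatives and that of *Mettl3* in 15. Those of *Mat2b* and *Wtap* and the RPF calls of *Mettl14* and *Ythdf2* were each lost in 7 to 12, as the *Mat2b*, *Wtap*, *Mettl14* and *Ythdf2* values in the report show. The count of the 10 genes decreased in total RNA, 4, was 2 with DESeq2 and 2 without TMM, and the count increased was 2 without a filter on low counts, where *Ahcyl1* passed at 0.42 (adjusted p = 1.6e-05, edgeR). The count decreased in RPF, 1, was 0 with DESeq2 and without TMM, and 2 with at least 10 counts in every library, the exact test, no filter, protein-coding genes alone and the replicate block, where *Ahcy* passed as well. It was 3 at an unadjusted p under 0.05, and the count increased was 0 with the exact test. The causes were not tested. In TE 2 of the 10 genes were past an unadjusted p under 0.05, as were 1359 genes decreased and 1268 increased in all, and without a filter 214 genes increased and the *Mat2a* difference was 0.0078. By coding length 4 neighbours in the total RNA order did not overlap, in place of 7.

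With each replicate left out in turn, the 10 genes decreased in total RNA were 2 to 3 and increased 1 to 2, in RPF 0 to 2 and 0 to 1, and decreased in TE 0 to 1. All genes in TE were 415 to 812 decreased (701 with all libraries) and 122 to 367 increased (346). The sign turned for *Mtr* in total RNA (-0.15 to 0.020), *Mettl16* in RPF (-0.069 to 0.49) and TE (-0.056 to 0.55), *Mat2a* in TE (-0.12 to 0.067), *Mat2b* in TE (-0.037 to 0.096), *Wtap* in TE (-0.034 to 0.11), and the RPF ratio of *Wtap* to *Mettl3* (-0.11 to 0.059). Without control 3, *Rnmt* cKO 1 and *Rnmt* cKO 2 together, a choice made after seeing the data that left 1 *Rnmt* cKO library assumed to vary like the controls, 1 of the 10 genes decreased in total RNA (*Ahcy*) and 0 in RPF. All genes then were 295 decreased and 397 increased in RPF and 202 and 85 in TE. *Mettl16* differed by 0.94 in RPF and 1.04 in TE, in the fit whose *Rnmt* cKO library was the one with high *Mettl16* RPFs. The difference was -0.090 for *Mat2a* and -0.040 for *Mettl14* in total RNA and -0.011 for *Mat2a* in RPF, and in TE 0.084 for *Mat2a*, -0.16 for *Mat2b*, -0.19 for *Ahcy* and 0.077 for *Ahcyl1*. No scaling moved the median of all genes by over 0.1.

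The labels give same-numbered control and *Rnmt* cKO libraries nothing in common but the number. Their deviations correlated at -0.48 to -0.17 in total RNA. In RPF the correlations were 0.28, -0.12 and 0.12 for numbers 1 to 3, and a preparation shared by number was not tested. With the number as replicate block, 2751 genes decreased and 2455 increased in total RNA, 1636 and 1596 in RPF, and 635 and 313 in TE, and 3 of the 10 genes decreased in total RNA. With the culture block in TE, 777 and 426 genes passed, 0 of the 10, and *Fmr1* was lost (adjusted p = 0.06, edgeR). Of the 10 genes *Ahcy* had the fewest RPF reads, 15 to 90 a library, counted on the small unshared part of its mRNA.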
